A study of Saccharomyces cerevisiae with 21 samples.

Results

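The genes described here are 9 transcripts linked to the resting state of budding yeast, namely SPG1, SPG3, SPG4 and SPG5, the vitamin B6 genes SNZ1, SNO1, SNZ2 and SNZ3, and YGP1. They were chosen by name, and all 9 were found by symbol among the 5408 genes with a named probe in the study, each with 1 probe on either array type. Their transcripts were measured in Saccharomyces cerevisiae strain S288C, a haploid laboratory strain, on 2-colour arrays that compared irradiated cells (Cy5) with unirradiated cells (Cy3). Thermal neutrons (20.8 Gy, from a reactor field of 17 mGy/min in which the thermal part was 1.0 to 2.0 mGy/min), carbon ions (25 Gy, 290 MeV/u, 3 Gy/min), gamma rays (17 Gy from Cs-137) and fast neutrons (20.3 Gy of a total of 21.4 Gy, 0.064 Gy/min) were applied to cells that had been washed into cold saline. For gamma rays the labels also give 1.4 Gy/min, which cannot be squared with 17 Gy over the stated time. For fast neutrons they give 336 min of exposure beside a time of 19 h. The stated time in cold saline was 20 h for thermal neutrons, 10 min for carbon ions, 20.5 h for gamma rays and 19 h for fast neutrons, and the control cells of each radiation spent the same time there. All cells, controls included, then grew for 40 min at 25 C in fresh YPD before polyA RNA was taken. Each radiation has 3 arrays, and the study's design text states that the biological samples were collected independently. Kind of radiation, dose, dose rate, time in the cold and volume of saline (5 ml for carbon ions and 2 ml for the others) changed together, so they cannot be told apart in any comparison between radiations. For both neutron fields the labels place irradiated cells in cuvettes and control cells in culture flasks, so vessel and irradiation cannot be told apart there.

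Yeast that runs out of nutrients leaves the cell cycle and enters stationary phase, a resting state in which it turns on genes for stress protection, respiration and survival. SPG genes (stationary phase genes) are needed for survival in that state at high temperature. SNZ and SNO genes form divergent pairs whose products join into the enzyme that makes pyridoxal phosphate, the active form of vitamin B6: Snz is the synthase and Sno the glutaminase that feeds it ammonia. YGP1 encodes a secreted cell wall glycoprotein made when nutrients become limiting.

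Values are log2 ratios of irradiated over control cells, so that 1 is a doubling. The labels state neither the log base nor the direction, which were inferred from the values and the channel order. A gene was called when its limma adjusted p was under 0.05, and every ± is an SD over 3 arrays. The 9 arrays of thermal neutrons, carbon ions and gamma rays share a table of values and were fitted together. The 3 arrays of fast neutrons have a table and an array type of their own, were fitted alone and are only set beside the others. Gamma ray arrays have a single scan, and all others have a high-power and a low-power scan, with 4496 to 6133 of 6912 probes valued in each. Across probes the 2 scans correlated least on fast neutrons replicate 2 (r = 0.693) and carbon ions replicate 3 (0.698), and at best with r = 0.962. On fast neutrons replicate 2 the high-power scan was centred at 0.13, when no other scan had a median beyond -0.0397 or 0.0049. HUG1, RNR2 and RNR4, which DNA damage induces, were positive on all 12 arrays. Irradiated cells carried Cy5 throughout, so any dye effect enters every ratio and drops out only when radiations of the shared table are subtracted.

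After gamma rays 5 of the 8 tested stationary phase genes rose and 1 fell, and the largest increases were those of SPG1 (7.87-fold) and SPG4 (4.37-fold). After thermal neutrons 2 of 9 tested members rose (SPG3 and SNZ1) and 2 fell (SPG5 and YGP1). After carbon ions 1 of 8 rose, YGP1. After fast neutrons 3 of 7 rose, namely SPG4, SNZ3 and YGP1. The share of all tested genes called in the same fits was 41.2% after thermal neutrons, 21.7% after carbon ions, 40.0% after gamma rays and 12.8% after fast neutrons. Set against these shares, the members' 4 of 9 after thermal neutrons was close to that of all genes. Their 6 of 8 after gamma rays was above it, and ranged from 4 to 6 with 1 array left out. The members were chosen with earlier results of these data known, so that share is not an independent result about them. Leaving out 1 array moved the count of all genes called after carbon ions from 1105 to 403 (without replicate 1) or 371 (without replicate 2). After fast neutrons the 630 genes called became 68 without replicate 1, 1652 without replicate 2 and 62 without replicate 3, and 1 member was called without replicate 1 or replicate 3. Nothing is read from the members' shares in those radiations. Split by direction, 19.9% of genes rose and 21.2% fell after thermal neutrons, 9.72% rose and 12.0% fell after carbon ions, 17.6% rose and 22.4% fell after gamma rays, and 6.16% rose and 6.60% fell after fast neutrons. The median log2 ratio of the tested members was 0.22 after thermal neutrons, 0.13 after carbon ions, 0.56 after gamma rays and 0.48 after fast neutrons. The median of all tested genes was -0.04, -0.04, -0.06 and 0.003 in the same order.

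**Figure D1:**
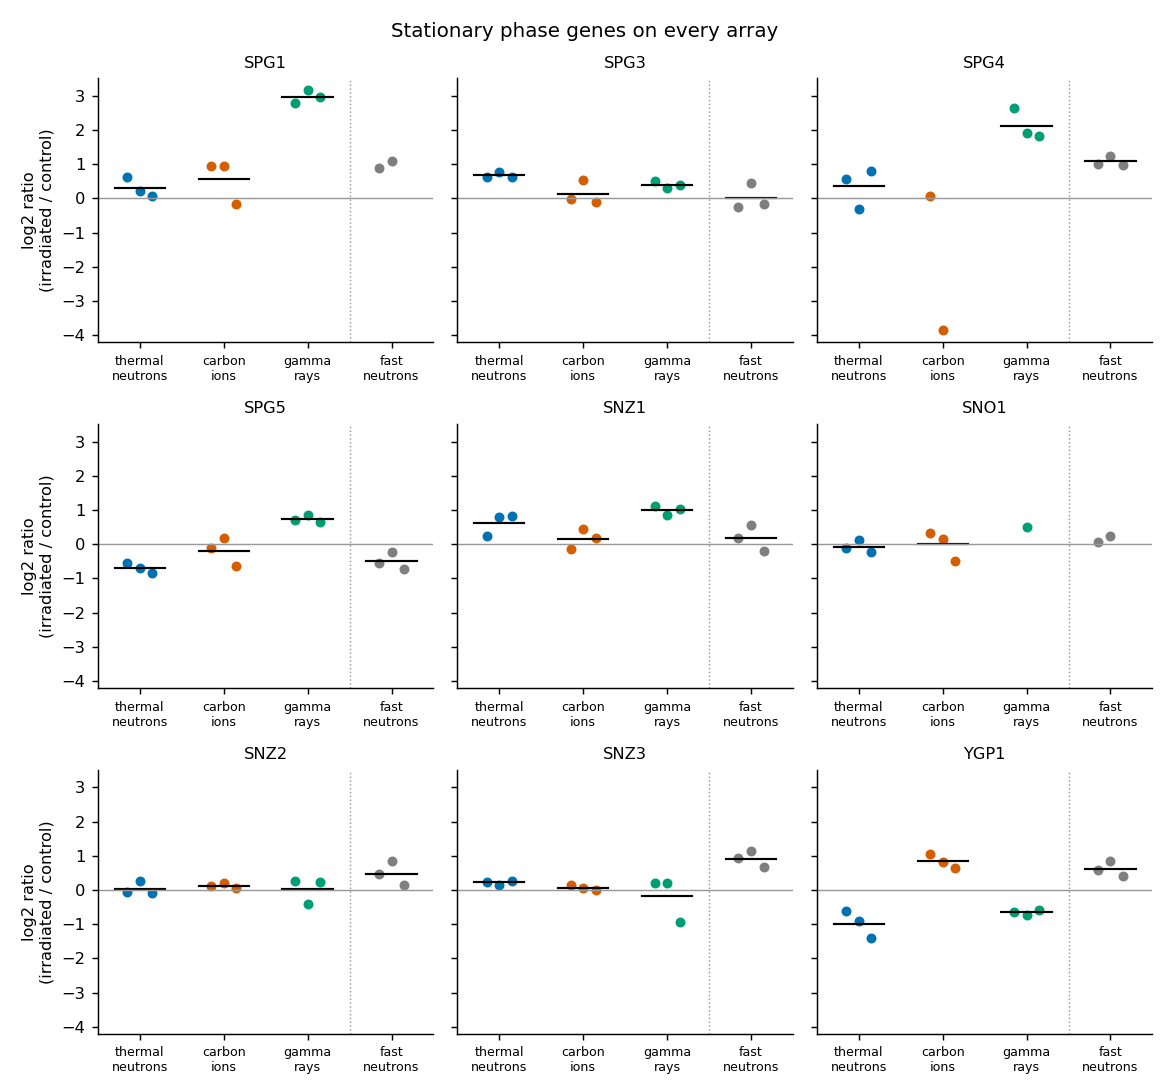
Log2 ratio (irradiated over control, y axis) of the 9 stationary phase genes on the 3 arrays of each radiation (x axis); each point is an array, and a horizontal line marks the mean where all 3 arrays gave a value. SPG1 and SPG4 stand highest after gamma rays, YGP1 is positive after carbon ions and fast neutrons and negative after thermal neutrons and gamma rays, and the dotted line sets off fast neutrons, which were measured on another array type.

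SPG1 (YGR236C, chromosome VII, 962530 to 962817 in the R64 annotation) encodes a small mitochondrial protein needed for survival in stationary phase at high temperature. Its log2 ratios were 0.64, 0.22 and 0.07 after thermal neutrons and 0.94, 0.95 and -0.17 after carbon ions. They were 2.80, 3.16 and 2.97 after gamma rays, and 0.90 and 1.10 on the 2 fast neutron arrays that gave a value. The gamma ray arrays lay far above all the others, and carbon ions replicate 3 was the only array below 0. The mean after gamma rays was 2.98 ± 0.18, the 7th highest of 4891 genes tested (adjusted p = 4e-06). The means after thermal neutrons (0.31 ± 0.29, adjusted p = 0.24) and carbon ions (0.57 ± 0.64, adjusted p = 0.065) did not pass the test. Without carbon ions replicate 3 the carbon ion mean was 0.94 and passed (adjusted p = 0.0038). On the 2 fast neutron arrays the mean of 1.00 passed in a fit of genes with at least 2 values (adjusted p = 0.032). SPG1 gave a value on 2 of 9 low-power scans, against 8 of 9 high-power scans, so most of its values rest on a single scan.

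SPG4 (YMR107W, chromosome XIII, 483014 to 483361) is likewise needed for high-temperature survival in stationary phase. It read 0.56, -0.31 and 0.81 after thermal neutrons. It read 0.08 and -3.85 on the carbon ion arrays with a value. After gamma rays its ratios were 2.64, 1.92 and 1.82, and after fast neutrons 1.02, 1.25 and 0.98. Every gamma ray array lay above every fast neutron array, and those lay above all arrays of the remaining radiations. The carbon ion value of -3.85, on replicate 3, came from a single high-power scan and is the lowest value of any member. SPG4 rose after gamma rays by 2.13 ± 0.45 (32nd highest of 4891 genes, adjusted p = 0.011) and after fast neutrons by 1.08 ± 0.15 (2.12-fold, 24th highest of 4936, adjusted p = 0.01). The gamma ray call was lost without gamma rays replicate 1 (mean 1.87, adjusted p = 0.067). In that fit, as in the main one, the spread of SPG4 includes the carbon ion value of -3.85. With all gamma ray arrays fitted alone, or on low-power scans, that value is absent. The gamma ray mean of 2.13 then passed with a smaller adjusted p than in the main fit. After thermal neutrons the mean of 0.35 ± 0.59 did not pass (adjusted p = 0.63).

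SPG5 (YMR191W, chromosome XIII, 645656 to 646777) encodes a protein that helps assemble the proteasome in stationary phase. After thermal neutrons it stood at -0.55, -0.69 and -0.83, and after carbon ions at -0.11, 0.19 and -0.65. After gamma rays it stood at 0.70, 0.86 and 0.64, and after fast neutrons at -0.56, -0.24 and -0.72. The 3 gamma ray arrays were thus the highest of the 12, and thermal and fast neutron arrays were all negative. SPG5 rose after gamma rays (0.73 ± 0.11, 1.66-fold, adjusted p = 0.0029) and fell after thermal neutrons (-0.69 ± 0.14, 1.61-fold lower, adjusted p = 0.0041). The fast neutron mean of -0.51 ± 0.25 missed the threshold (adjusted p = 0.071). It passed at -0.64 without fast neutrons replicate 2 (adjusted p = 0.00081).

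SPG3 (YDR504C, chromosome IV, 1456311 to 1456694), the remaining SPG member, moved less. Its ratios were 0.64, 0.77 and 0.61 after thermal neutrons, -0.02, 0.55 and -0.11 after carbon ions, 0.51, 0.29 and 0.39 after gamma rays, and -0.25, 0.46 and -0.16 after fast neutrons. All thermal neutron arrays lay above all gamma ray arrays. In the other radiations replicate 2 was the only positive array. SPG3 rose after thermal neutrons (0.67 ± 0.08, 1.59-fold, adjusted p = 0.0028). It also rose after gamma rays (0.39 ± 0.11, adjusted p = 0.038), a call that was lost when any gamma ray array was left out (adjusted p from 0.079 to 0.14).

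SNZ1 (YMR096W, chromosome XIII, 458408 to 459301), the pyridoxal phosphate synthase gene best known for its induction in stationary phase, read 0.24, 0.81 and 0.81 after thermal neutrons and -0.14, 0.44 and 0.18 after carbon ions. After gamma rays it read 1.12, 0.85 and 1.02, and after fast neutrons 0.17, 0.56 and -0.20. The gamma ray arrays were again the highest 3 of the 12, though 2 thermal neutron arrays lay just below the lowest of them. SNZ1 doubled after gamma rays (1.00 ± 0.14, adjusted p = 0.00051) and rose 1.54-fold after thermal neutrons (0.62 ± 0.33, adjusted p = 0.0074). The thermal neutron call was lost without replicate 2 (adjusted p = 0.062) or replicate 3 (adjusted p = 0.058). The carbon ion and fast neutron means, 0.16 ± 0.29 and 0.18 ± 0.38, did not pass (adjusted p = 0.46 and 0.52).

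SNO1 (YMR095C, chromosome XIII, 457285 to 457959), the glutaminase partner of SNZ1, starts 448 bases from it on the opposite strand. It gave a value on 9 of 12 arrays and on 12 of 21 scans. Its ratios were -0.10, 0.12 and -0.23 after thermal neutrons, 0.33, 0.14 and -0.48 after carbon ions, 0.49 on the 1 gamma ray array with a value, and 0.05 and 0.25 on 2 fast neutron arrays. The gamma ray value is the highest of SNO1, but with 1 array it could not be tested, so the SNZ1 and SNO1 pair cannot be compared where SNZ1 was highest. The means after thermal neutrons (-0.07 ± 0.18) and carbon ions (-0.002 ± 0.42) did not pass the test.

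SNZ2 (YNL333W, chromosome XIV, 13267 to 14163) and SNZ3 (YFL059W, chromosome VI, 11363 to 12259) are near-identical copies of each other and relatives of SNZ1 that lie close to chromosome ends, each beside a gene of the THI5 family, which makes the pyrimidine moiety of thiamine. A probe for either copy could bind transcripts of both, so their values are uncertain as to which copy they report. SNZ2 read -0.06, 0.26 and -0.08 after thermal neutrons, 0.10, 0.20 and 0.06 after carbon ions, 0.26, -0.40 and 0.25 after gamma rays, and 0.47, 0.84 and 0.13 after fast neutrons. No SNZ2 mean passed the test, and the largest, 0.48 ± 0.36 after fast neutrons, had an adjusted p of 0.1.

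SNZ3 read 0.24, 0.15 and 0.27 after thermal neutrons, 0.13, 0.06 and -0.01 after carbon ions, 0.21, 0.19 and -0.95 after gamma rays, and 0.92, 1.14 and 0.66 after fast neutrons. Its fast neutron arrays were the highest of the 12, and gamma rays replicate 3 stood far below the other arrays. SNZ3 rose after fast neutrons (0.91 ± 0.24, 1.88-fold, 60th highest of 4936 genes, adjusted p = 0.017). That call was lost without fast neutrons replicate 1 (adjusted p = 0.083) or replicate 3 (adjusted p = 0.055). The gamma ray mean was -0.18 ± 0.67 (adjusted p = 0.48), and with gamma rays SNZ3 and SNZ2 gave different signs on replicates 2 and 3.

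**Figure D2:**
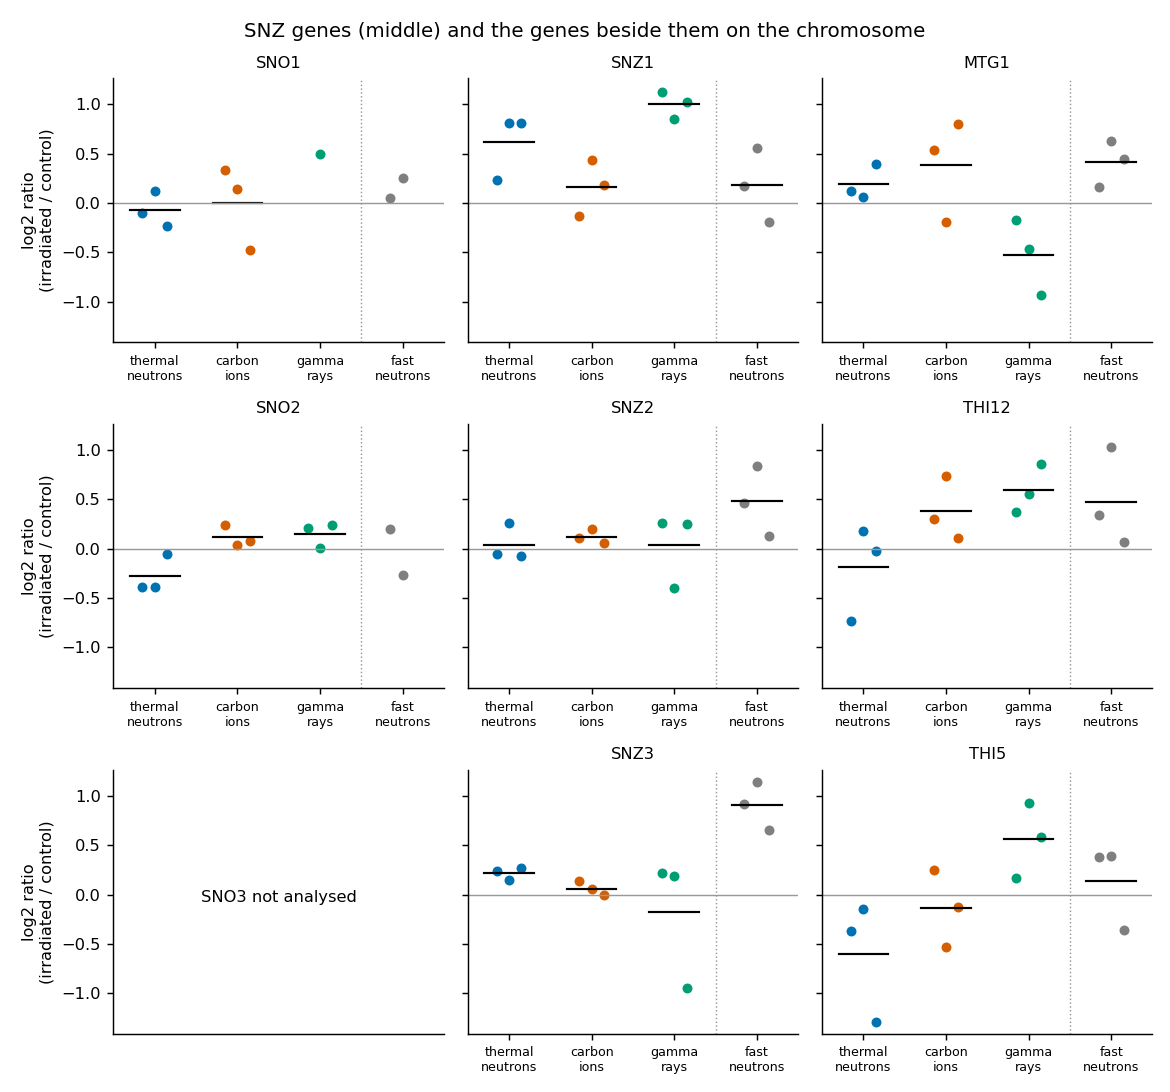
Log2 ratio (irradiated over control, y axis) by radiation (x axis) of the SNZ genes in the middle column, their SNO partners on the left and the genes on their other side on the right; each point is an array, and a line marks the mean where 3 arrays gave a value. SNZ1 is high after gamma rays while MTG1 beside it is negative on all 3 gamma ray arrays, and THI5 and THI12 average above 0 after gamma rays and below 0 after thermal neutrons while SNZ2 and SNZ3 do not show that difference.

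The genes beside the SNZ members were measured on the same arrays. THI12, 668 bases from SNZ2, had log2 ratios of -0.73, 0.18 and -0.02 after thermal neutrons, 0.30, 0.74 and 0.10 after carbon ions, 0.38, 0.56 and 0.86 after gamma rays, and 0.34, 1.03 and 0.07 after fast neutrons. It rose after gamma rays (0.60 ± 0.24, adjusted p = 0.022) and was lower after thermal neutrons than after gamma rays (difference -0.79, adjusted p = 0.031). The gamma ray call of THI12 was lost without gamma rays replicate 2 (adjusted p = 0.072) or 3 (0.15), and its difference without those arrays (0.066 and 0.11) or thermal neutrons replicate 1 (0.13). THI5, 669 bases from SNZ3, averaged -0.60 ± 0.61 after thermal neutrons (adjusted p = 0.049) and 0.56 ± 0.38 after gamma rays (adjusted p = 0.062), a difference of -1.16 (adjusted p = 0.013). The same differences were 0.007 for SNZ2 (95% interval -0.44 to 0.45) and 0.40 for SNZ3 (-0.19 to 0.99). THI5 and THI12 are themselves near-identical, and the thermal neutron call of THI5 was lost without thermal neutrons replicate 1 or 3 or carbon ions replicate 3, and with median centring, scaling or array weights (adjusted p from 0.052 to 0.41). Its difference was lost without gamma rays replicate 2 (adjusted p = 0.053). SNO2, the partner of SNZ2 at 390 bases, averaged -0.28 ± 0.19 after thermal neutrons, 0.12 ± 0.11 after carbon ions and 0.15 ± 0.12 after gamma rays. None of these means passed in the main fit (adjusted p = 0.08, 0.48 and 0.32). The thermal neutron mean of SNO2 passed with array weights (adjusted p = 0.006) and without thermal neutrons replicate 3 (0.049). SNO3 was not analysed here. MTG1, a mitochondrial GTPase gene 122 bases from SNZ1, fell after gamma rays (-0.52 ± 0.39, adjusted p = 0.046). That call was lost with median centring (adjusted p = 0.063), with scaling (0.088) and without gamma rays replicate 2 (0.11) or 3 (0.3).

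YGP1 (YNL160W, chromosome XIV, 336545 to 337609) was called in every radiation, with both signs. Its ratios were -0.63, -0.92 and -1.41 after thermal neutrons, 1.06, 0.83 and 0.64 after carbon ions, -0.64, -0.73 and -0.58 after gamma rays, and 0.60, 0.86 and 0.42 after fast neutrons. All 6 arrays of carbon ions and fast neutrons were positive, and all 6 of thermal neutrons and gamma rays were negative. YGP1 fell after thermal neutrons (-0.99 ± 0.40, 1.98-fold lower, adjusted p = 0.00046) and after gamma rays (-0.65 ± 0.08, 1.57-fold lower, adjusted p = 0.0057). It rose after carbon ions (0.84 ± 0.21, 1.79-fold, adjusted p = 0.0037) and after fast neutrons (0.63 ± 0.22, 1.54-fold, adjusted p = 0.039). The fast neutron call was lost without replicate 1 (adjusted p = 0.2) or replicate 3 (adjusted p = 0.1).

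SPS100, the paralog of YGP1, encodes a protein of the spore wall. It read 0.45, 0.38 and 0.28 after thermal neutrons, 0.81, 0.86 and 1.18 after carbon ions, -0.26, 0.50 and -0.05 after gamma rays, and 0.14, 0.65 and 0.26 after fast neutrons. SPS100 rose after carbon ions (0.95 ± 0.20, adjusted p = 0.0018), as YGP1 did. On the thermal neutron arrays, where YGP1 was negative, SPS100 was positive (0.37 ± 0.09, adjusted p = 0.065), and its gamma ray mean was 0.07 ± 0.39 (adjusted p = 0.76). The thermal neutron mean of SPS100 passed on high-power scans (adjusted p = 0.044) and with median centring (0.05 after rounding). It also passed with array weights (0.013) and with that radiation fitted alone (0.035).

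**Figure D3:**
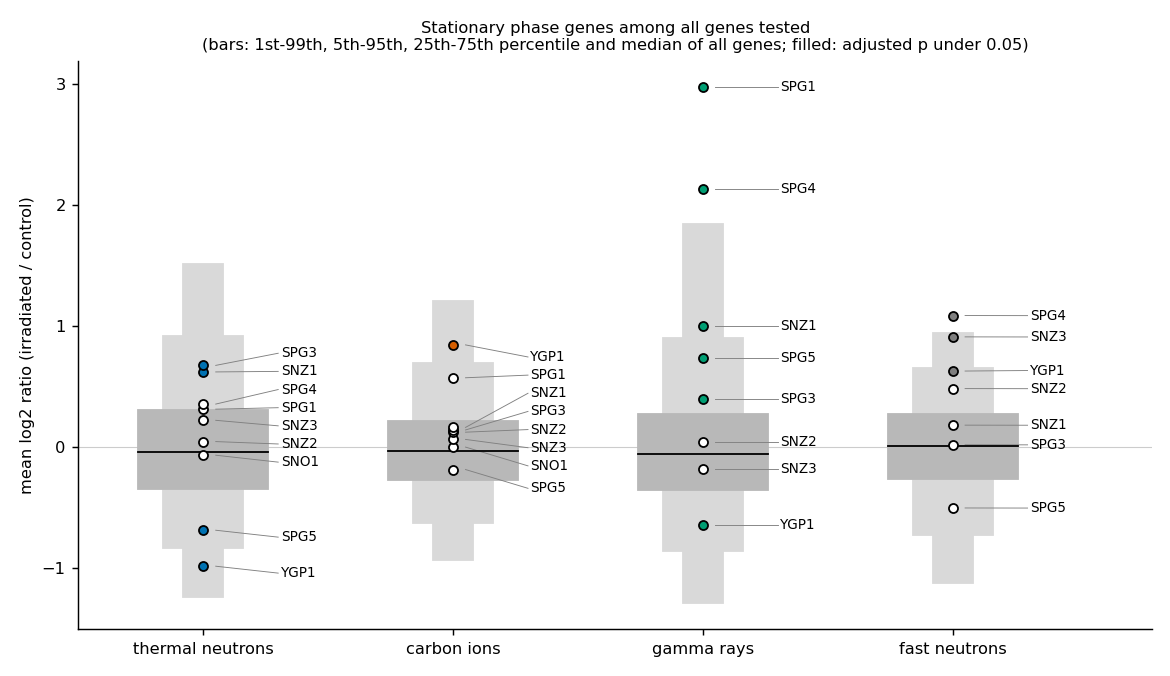
Mean log2 ratio (irradiated over control, y axis) of the tested stationary phase genes in each radiation (x axis), drawn over grey bars that span the 1st to 99th, 5th to 95th and 25th to 75th percentiles of all genes tested, with the median as a line; filled points have an adjusted p under 0.05. SPG1 and SPG4 lie above the 99th percentile after gamma rays (1.84) and SPG4 does so after fast neutrons (0.94), while after carbon ions YGP1 alone lies above the 95th percentile (0.69).

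The radiations of the shared table were then compared with each other, gene by gene. Carbon ions against gamma rays gave 3 members lower and 1 higher of 7 tested, where 20.9% of all genes were called (11.5% higher and 9.37% lower). SPG1 was lower after carbon ions than after gamma rays (log2 difference -2.41, 95% interval -3.04 to -1.78, 5.3-fold lower, adjusted p = 0.0007). SPG5 differed by -0.92 (-1.39 to -0.46, adjusted p = 0.012). SNZ1 differed by -0.84 (-1.30 to -0.38, adjusted p = 0.019), a call lost without carbon ions replicate 1 (adjusted p = 0.079) or gamma rays replicate 3 (adjusted p = 0.054). YGP1 differed the other way, by 1.49 (1.03 to 1.95, 2.81-fold higher after carbon ions, adjusted p = 0.0015). SPS100 was also higher after carbon ions, by 0.89 (adjusted p = 0.014), a call lost without gamma rays replicate 3 (adjusted p = 0.051). Differences of SPG3 (-0.26, interval -0.68 to 0.17), SNZ2 (0.08, -0.36 to 0.53) and SNZ3 (0.24, -0.35 to 0.83) did not pass. SPG4, with 2 carbon ion arrays, was lower after carbon ions in the fit of genes with at least 2 values (difference -4.01, adjusted p = 0.011). The size of that difference rests on the array that read -3.85. The other carbon ion array read 0.08, also below every gamma ray array.

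Thermal neutrons against gamma rays gave 2 members lower and none higher of 8 tested, where 38.2% of all genes were called (20.4% higher and 17.8% lower). These were SPG1, with a difference of -2.67 (-3.30 to -2.03, 6.34-fold lower, adjusted p = 6e-05), and SPG5, with a difference of -1.42 (-1.89 to -0.96, 2.68-fold lower, adjusted p = 0.00047). SPG4 differed by -1.77 (-3.48 to -0.07, adjusted p = 0.092). Its thermal and gamma ray arrays did not overlap, and its spread in the shared fit includes the carbon ion value of -3.85. Without carbon ions replicate 3 the same difference passed (adjusted p = 0.0016), as it did when the arrays of thermal neutrons and gamma rays alone were fitted (adjusted p = 0.001). SNZ1 (-0.38, -0.85 to 0.08) and YGP1 (-0.34, -0.80 to 0.12) did not pass, and neither did SPG3 (0.28, -0.15 to 0.70).

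Thermal neutrons against carbon ions gave 1 member of 8, where 10.2% of all genes were called (5.82% higher and 4.41% lower). The 515 genes behind that share became 197 or 193 without thermal neutrons replicate 1 or 2, and 202 or 249 without carbon ions replicate 1 or 2. YGP1 was 3.55-fold lower after thermal neutrons (difference -1.83, -2.29 to -1.37, adjusted p = 0.00081), the 21st lowest difference of 5033 genes. SPG3 (0.53, 0.11 to 0.96, adjusted p = 0.1), SPG5 (-0.50, -0.97 to -0.04, adjusted p = 0.16) and SNZ1 (0.46, -0.01 to 0.92, adjusted p = 0.19) missed the threshold. SPG3 passed without carbon ions replicate 2 (difference 0.74, adjusted p = 0.04) and SPG5 without carbon ions replicate 3 (difference -0.73, adjusted p = 0.032). SPG1 (-0.26, -0.89 to 0.37), which stood apart after gamma rays, did not pass here.

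**Figure D4:**
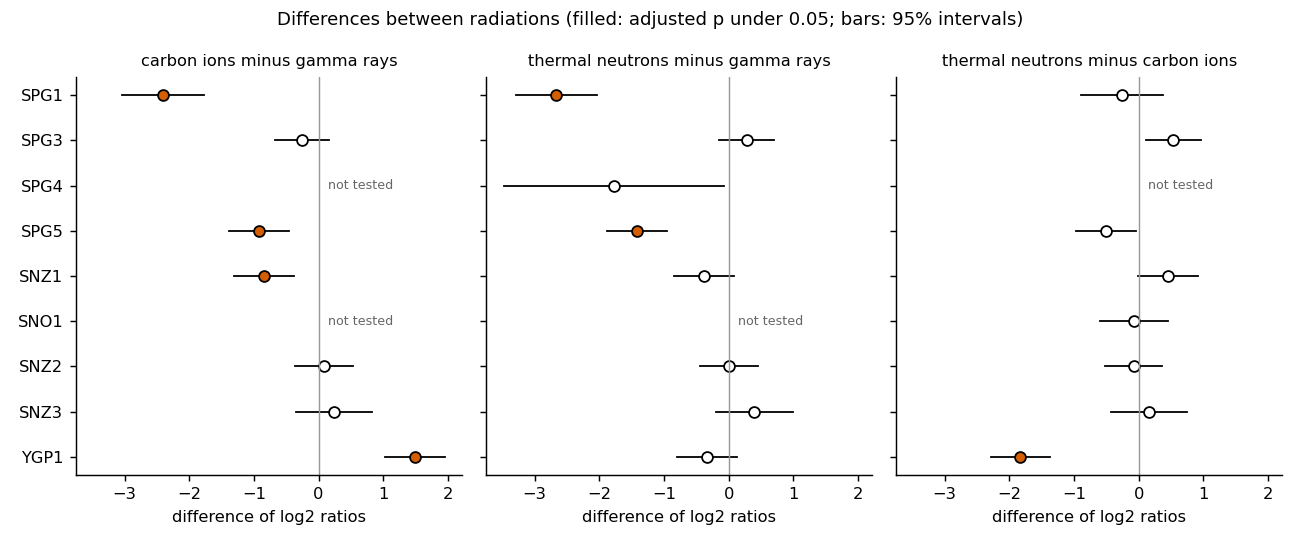
Differences of the mean log2 ratios between radiations (x axis, log2 scale) for each stationary phase gene (rows), with 95% intervals as bars and filled points where the adjusted p is under 0.05. SPG1 and SPG5 lie below 0 in both comparisons against gamma rays, and YGP1 lies above 0 for carbon ions against gamma rays and below 0 for thermal neutrons against carbon ions.

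The radiations of the shared table were ordered by level for each gene. For SPG1 the order was gamma rays, carbon ions and thermal neutrons, with the last 2 not separated (adjusted p = 0.6). SPG5 had the same order, and again carbon ions and thermal neutrons were not separated (adjusted p = 0.16). For SNZ1 the order was gamma rays, thermal neutrons and carbon ions. Differences between neighbours in that order did not pass the test (adjusted p = 0.17 and 0.19), though every gamma ray array lay above every thermal neutron array. SPG3 ran from thermal neutrons through gamma rays to carbon ions. Its neighbours in that order did not pass the test either (adjusted p = 0.27 and 0.37), though every thermal neutron array lay above every gamma ray array. YGP1 was highest after carbon ions, and gamma rays and thermal neutrons below were not separated (adjusted p = 0.22).

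Across the 9 arrays of the shared table, SPG1 and SPG5 ran most closely together of the 21 pairs of members with 9 values, with a Pearson r of 0.958. YGP1 ran against SNZ1 (r = -0.74) and SPG3 (r = -0.673), while SNZ2 and SNZ3 gave r = -0.374. These are descriptions over arrays that fall into 3 radiations, and arrays of a radiation share its handling. The genes most like each member were picked for their r on these same arrays, among 4703 genes with 9 values. ICL1, isocitrate lyase of the glyoxylate cycle, was the most like SPG1 (r = 0.981) and also the most like SPG5 (r = 0.98). With the radiation means taken out, the r of ICL1 was 0.972 with SPG1 and 0.845 with SPG5. These r values describe the pattern over arrays and not the level. ICL1 averaged -0.53 after thermal neutrons, -0.24 after carbon ions and 0.50 after gamma rays, beside 0.31, 0.57 and 2.98 for SPG1. CDC7 (0.975) and YMR085W (0.974) came next for SPG1, and GAL10 (0.969) and UPA1 (0.966) for SPG5. TPO3 (0.976) and TPO2 (0.95), polyamine exporters of the plasma membrane, and GLY1 (0.948), threonine aldolase, were the most like YGP1. With the radiation means taken out their r was 0.816, 0.514 and 0.82. TPO3 averaged -1.41 after thermal neutrons, 0.07 after carbon ions and -0.95 after gamma rays, so it shared the low values of YGP1 but not its rise after carbon ions. For SNZ1 the nearest genes were SNF2 (0.953), MAF1 (0.93) and ADK2 (0.929). Their means after gamma rays were 0.40, -0.05 and -0.07, beside 1.00 for SNZ1. For SPG3 the nearest were OXR1 (0.921), HMX1 (0.916) and KIP1 (0.891). GRX6 (0.928), MRP1 (0.92) and YPL060C-A (0.812) were nearest to SNZ2, and HUA2 (0.964), YDL009C (0.956) and YLR460C (0.944) to SNZ3. SNZ3 read -0.95 on gamma rays replicate 3 and from -0.01 to 0.27 on the other shared arrays. Its r values therefore rest largely on that array.

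Genes beside the SPG members and YGP1 were called in some of the same radiations. PSP1 lies directly beside SPG3, with 0 bases between them, and rose where SPG3 did, after thermal neutrons (0.81 ± 0.24, adjusted p = 0.00068) and gamma rays (0.43 ± 0.18, adjusted p = 0.022). Its gamma ray call was lost without gamma rays replicate 1 (adjusted p = 0.079) or 3 (0.13). YGR237C, 480 bases from SPG1, rose by 0.76 ± 0.28 after thermal neutrons (adjusted p = 0.0017) and 0.69 ± 0.21 after gamma rays (adjusted p = 0.0031). Its thermal neutron minus gamma ray difference was 0.07, and that of SPG1 was -2.67. GYL1, 340 bases from SPG5, rose after thermal neutrons (1.02 ± 0.24, adjusted p = 0.00012), where SPG5 fell. ILV2, 722 bases from SPG4 and an enzyme of branched-chain amino acid synthesis, fell after thermal neutrons (-0.70 ± 0.33, adjusted p = 0.0044). MIC26, LPP1, CBK1 and ASI2 passed no test in any radiation in the main fit. CBK1 after gamma rays passed with array weights (adjusted p = 0.05 after rounding), and ASI2 after carbon ions with scaling (0.032).

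Regulators of entry into stationary phase were examined as a list of 20 genes. In this list and those below, at most 3 called genes are named per radiation. A named gene may therefore also be called in radiations not mentioned for it. Of those tested, 3 of 16 rose and 5 fell after thermal neutrons, 2 of 15 rose and 1 fell after carbon ions, 5 of 15 rose and none fell after gamma rays, and 1 of 14 rose after fast neutrons. XBP1, a repressor of cell cycle genes in quiescent and stressed cells, rose after thermal neutrons (1.02 ± 0.37, adjusted p = 0.0011), carbon ions (0.90 ± 0.42, adjusted p = 0.0065) and gamma rays (1.56 ± 0.24, adjusted p = 0.0001). GIS1, the transcription factor of the post-diauxic shift, rose after gamma rays (1.37 ± 0.29, adjusted p = 0.0025), and so did SSD1, an RNA-binding protein (0.63 ± 0.26, adjusted p = 0.0048). RAS2, which drives the protein kinase A pathway, rose after thermal neutrons (0.92 ± 0.07, adjusted p = 0.00025) and carbon ions (0.46 ± 0.18, adjusted p = 0.026). PHO80, a cyclin of the phosphate pathway, fell after thermal neutrons (-0.65 ± 0.15, adjusted p = 0.0012). MSN2, a general stress activator, fell after carbon ions (-0.48 ± 0.17, adjusted p = 0.024), and YAK1, a kinase that slows growth, rose after fast neutrons (0.72 ± 0.08, adjusted p = 0.024). The list's median was -0.07 after thermal neutrons, 0.25 after carbon ions, 0.27 after gamma rays and -0.10 after fast neutrons, beside the medians of all genes given above. The shares that rose, 18.8% after thermal neutrons and 13.3% after carbon ions, were near those of all genes (19.9% and 9.72%). After gamma rays 33.3% rose beside 17.6%. Falling shares were 31.2% after thermal neutrons and 6.67% after carbon ions, beside 21.2% and 12.0% of all genes. They were 0.00% after gamma rays and after fast neutrons, beside 22.4% and 6.60%. Leaving out 1 array ended the calls of XBP1, RAS2 and MSN2 after carbon ions and of YAK1 after fast neutrons.

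Other genes that switch on at the diauxic shift and in stationary phase, a list of 18, are set beside the members. After thermal neutrons 13 of 18 tested genes rose and 1 fell, and after carbon ions 14 of 15 rose. After gamma rays 8 of 17 rose, and after fast neutrons 7 of 15 rose. Shares that rose were 72.2%, 93.3%, 47.1% and 46.7% in that order, beside 19.9%, 9.72%, 17.6% and 6.16% of all genes. The all-gene counts after carbon ions and fast neutrons moved widely when 1 array was left out, as given above. The median log2 ratio of the list was 1.00 after thermal neutrons, 0.95 after carbon ions, 0.37 after gamma rays and 0.55 after fast neutrons. HSP12, a membrane-protecting stress protein, rose after thermal neutrons (1.85 ± 0.31, adjusted p = 1.2e-05), carbon ions (1.98 ± 0.33, adjusted p = 2.3e-05) and fast neutrons (2.40 ± 0.33, adjusted p = 0.0014). HSP26, a small heat shock protein, rose after thermal neutrons by 3.01 ± 0.75 (adjusted p = 1.1e-05). SSE2, a nucleotide exchange factor of Hsp70, rose there by 1.38 ± 0.08 (adjusted p = 1.3e-05). FMP16 rose by 1.66 ± 0.17 after carbon ions (adjusted p = 0.00014) and by 1.66 ± 0.56 after fast neutrons (adjusted p = 0.0095). SPI1, a cell wall protein, rose by 1.76 ± 0.57 after carbon ions (adjusted p = 0.0002) and by 1.05 ± 0.37 after fast neutrons (adjusted p = 0.017). FMP16 (1.35, adjusted p = 0.00014) and HSP26 (0.83, adjusted p = 0.015) also rose after gamma rays. HSP12, SSE2 and SPI1 did not pass there (adjusted p = 0.28, 0.33 and 0.45). After gamma rays the leading genes were OM45 of the mitochondrial outer membrane (1.53 ± 0.19, adjusted p = 1.4e-05), HXT5, a hexose transporter of slow growth (2.42 ± 0.37, adjusted p = 2.8e-05), and FMP45 of the cell cortex (1.91 ± 0.28, adjusted p = 0.00011). The list had its highest medians after thermal neutrons and carbon ions, and the tested members had theirs after gamma rays (0.56, beside 0.48 after fast neutrons). The members tested differed, since SNO1 is missing after gamma rays, SPG1 and SNO1 after fast neutrons and SPG4 after carbon ions. The contrast between the list and the members was not tested. The call of SPI1 after fast neutrons was lost without replicate 1.

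The remaining genes of vitamin B6 supply formed a list of 6. None of those tested rose in any radiation, while 3 of 5 fell after thermal neutrons, 2 of 5 after carbon ions, 2 of 5 after gamma rays and 1 of 4 after fast neutrons. BUD16, pyridoxal kinase, fell in all 4 radiations. Its means were -0.85 ± 0.31 after thermal neutrons (adjusted p = 0.0017), -0.90 ± 0.37 after carbon ions (adjusted p = 0.0038), -1.24 ± 0.18 after gamma rays (adjusted p = 0.00021) and -1.15 ± 0.14 after fast neutrons (adjusted p = 0.0095). BUD17, a relative of BUD16, fell after thermal neutrons (-0.59 ± 0.15, adjusted p = 0.0082), carbon ions (-0.63 ± 0.11, adjusted p = 0.013) and gamma rays (-1.01 ± 0.40, adjusted p = 0.00043). TPN1, the plasma membrane importer of vitamin B6, fell after thermal neutrons (-0.38 ± 0.18, adjusted p = 0.041). Leaving out 1 array ended the calls of BUD16 after fast neutrons, BUD17 after thermal neutrons and carbon ions, and TPN1. The shares that fell were 60.0% after thermal neutrons, 40.0% after carbon ions, 40.0% after gamma rays and 25.0% after fast neutrons, of 5 genes or fewer, beside 21.2%, 12.0%, 22.4% and 6.60% of all genes.

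Thiamine genes, a list of 17 that includes the neighbours of SNZ2 and SNZ3, differed between thermal neutrons and gamma rays. Of those tested, none rose and 7 of 17 fell after thermal neutrons, none rose and 3 of 16 fell after carbon ions, 6 of 16 rose and 3 fell after gamma rays, and 1 of 15 fell after fast neutrons. In the comparison of thermal neutrons with gamma rays 10 of 16 (62.5%) were lower and none higher. Among all genes 17.8% were lower and 20.4% higher. The list's median difference was -0.72, where that of all genes was 0.03. THI5, THI11 and THI12 are near-identical, so their probes may not report separate genes. In that comparison the calls of THI5 and THI12 were each lost with 1 array left out, as given above. THI7, the thiamine transporter, fell after thermal neutrons (-1.20 ± 0.16, adjusted p = 4.2e-05) and rose after gamma rays (0.63 ± 0.15, adjusted p = 0.0026). THI72, its paralog, fell after thermal neutrons (-0.88 ± 0.19, adjusted p = 0.0028). THI22 fell there too (-0.95 ± 0.37, adjusted p = 0.0049) and after fast neutrons (-0.80 ± 0.10, adjusted p = 0.019). THI80, which makes thiamine pyrophosphate, fell after carbon ions (-0.64 ± 0.39, adjusted p = 0.043) and gamma rays (-1.30 ± 0.49, adjusted p = 0.00059). THI11, a near-identical relative of THI5 and THI12, rose after gamma rays (0.56 ± 0.28, adjusted p = 0.0052). PDC2, an activator of thiamine genes (-0.52 ± 0.32, adjusted p = 0.036), and PHO3, a phosphatase that acts on thiamine phosphates (-0.45 ± 0.25, adjusted p = 0.042), fell after carbon ions. After gamma rays PDC2 fell as well (-0.49, adjusted p = 0.026) and PHO3 rose (0.38, adjusted p = 0.049). That rise of PHO3 was not called on high-power scans (adjusted p = 0.052). Leaving out 1 array ended the carbon ion calls of THI80, PDC2 and PHO3, the gamma ray call of THI11 and the fast neutron call of THI22. The list had 41.2% lower after thermal neutrons, 18.8% lower after carbon ions and 37.5% higher after gamma rays, beside 21.2%, 12.0% and 17.6% of all genes.

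SNZ1 is also a target of GCN4, the activator of amino acid synthesis. Of a list of 28 such targets, 5 of 24 tested rose and 9 fell after thermal neutrons, none of 23 rose and 8 fell after carbon ions, 5 of 23 rose and 7 fell after gamma rays, and none of 25 rose and 8 fell after fast neutrons. CPA1 (1.50 ± 0.24, adjusted p = 1.1e-05) and ARG4 (0.90 ± 0.09, adjusted p = 0.0008), of arginine synthesis, rose after gamma rays, and ARG3 rose after thermal neutrons (1.00 ± 0.10, adjusted p = 0.00028). LYS1, of lysine synthesis, rose after thermal neutrons (1.18 ± 0.04, adjusted p = 2.8e-05) and fell after gamma rays (-0.68 ± 0.23, adjusted p = 0.001). HOM3, aspartate kinase, fell after thermal neutrons (-0.98 ± 0.31, adjusted p = 0.00069) and carbon ions (-0.70 ± 0.32, adjusted p = 0.012). TRP3 (-0.93 ± 0.48, adjusted p = 0.0042) and HIS5 (-0.70 ± 0.16, adjusted p = 0.0019) fell after carbon ions. LYS9 (-1.33 ± 0.26, adjusted p = 0.0082), LYS20 (-1.03 ± 0.29, adjusted p = 0.015) and ORT1, the mitochondrial ornithine carrier (-0.71 ± 0.17, adjusted p = 0.028), fell after fast neutrons. The list's shares after thermal neutrons (20.8% higher and 37.5% lower) and gamma rays (21.7% and 30.4%) lay beside 19.9% and 21.2%, and 17.6% and 22.4%, of all genes, so the shares that rose were near those of all genes. After carbon ions and fast neutrons 34.8% and 32.0% of the list fell, beside 12.0% and 6.60%. Its median was -0.24 after thermal neutrons, -0.35 after carbon ions, -0.03 after gamma rays and -0.37 after fast neutrons. Leaving out 1 array ended the calls of HOM3 after carbon ions and of LYS20 and ORT1 after fast neutrons.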

How the data were processed

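Transcripts were measured on 12 arrays of 2 channels. The values are deposited log2 ratios, which the authors normalised by LOWESS over spots with flag value 0, per the labels. The log base was inferred from the values (4 columns have their minimum at -6.6439, log2 of 0.01) and the direction from the channel order in the labels. No genome build applies to the ratios, and coordinates are those of the RefSeq R64 table. Scans of an array were averaged per probe, then probes of a gene. Probes were named by the platform annotation (5446 and 5513 of 6912 had 1 symbol, the others none). limma (3.58.1, R 4.3.3; lmFit, eBayes, two-sided) tested genes with a value on all 3 arrays of the radiations compared, with Benjamini-Hochberg adjustment over all genes tested, and was checked on simulated data. Intensities and depth were not used here, and the number of arrays limits the precision. The members and lists were chosen with earlier results of these data known. Named genes are the members, their paralog, partners and neighbours, 3 damage-induced genes, up to 3 called genes with the smallest p per list and radiation, and the 3 genes most correlated with each member. SPS100, SNO2, SNO3, THI5, THI12 and ILV2 also belong to lists. Alternatives covered scans, centring, scaling, array weights, missing values, the arrays fitted, single replicates and a replicate block.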

Additional observations from a re-analysis of the deposited data

Results flagged for a closer look

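Several members had different log2 ratios after different radiations, by a limma test of the difference itself. Dose, dose rate, time in the cold and volume of saline changed along with the radiation and cannot be told apart from it. Carbon ions minus gamma rays gave log2 differences of -2.41 for SPG1, -0.92 for SPG5, -0.84 for SNZ1 and 1.49 for YGP1. The SNZ1 call was lost without carbon ions replicate 1 (adjusted p = 0.079) or gamma rays replicate 3 (0.054). Thermal neutrons minus gamma rays gave -2.67 for SPG1 and -1.42 for SPG5. Thermal neutrons minus carbon ions gave -1.83 for YGP1. Fast neutrons were set beside the other radiations without a test, because they were measured on another array type. SPG5 was negative on every fast neutron array (mean -0.51) and positive on every gamma ray array (mean 0.73). YGP1 was positive on every fast neutron array (mean 0.63), against negative on every gamma ray array (mean -0.65) and every thermal neutron array (mean -0.99). These opposite signs were not tested.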

How the results depend on the processing

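Where a member was tested in both the main fit and an alternative, no value called in either changed its sign. Of the values compared, 621 kept their side of the threshold, 16 lost the call and 16 gained it. Sign changes of values called in neither fit were not counted. SNZ2 after gamma rays, for example, was 0.04 in the main fit and -0.09 with array weights. The count of genes called after carbon ions was 1105, against 1676 with arrays scaled to the same spread, 1684 with array weights and 532 with the radiation fitted alone. After fast neutrons it was 630, against 35 on high-power scans, 1323 on low-power scans, 980 with scaling, 1732 with array weights and 1391 without the high-power scan of replicate 2, an alternative added after the data were seen, as was the thermal neutron and gamma ray fit without carbon ions replicate 3. Members called after fast neutrons were 3, against 1 on high-power scans and 5 on low-power scans, with array weights or without that scan. Array weights gave 2 members after carbon ions and 2 for thermal neutrons minus carbon ions, where it gave 1153 genes against 515. Low-power scans gave 1 member for thermal neutrons minus gamma rays, with fewer members tested.

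Leaving out 1 array gave 1446 to 2235 genes and 3 to 4 members after thermal neutrons, 371 to 1058 and 1 to 2 after carbon ions, 1310 to 2018 and 4 to 6 after gamma rays, and 62 to 1652 and 1 to 4 after fast neutrons. The ranges were 541 to 843 genes and 3 to 5 members for carbon ions minus gamma rays, 1481 to 1919 and 2 to 3 for thermal neutrons minus gamma rays, and 193 to 577 and 1 to 2 for thermal neutrons minus carbon ions. Without fast neutrons replicate 2 there were 1652 genes, without replicate 1 there were 68 and without replicate 3 there were 62. Thermal neutrons replicate 3 (1446), carbon ions replicates 1 and 2 (403 and 371 after carbon ions) and gamma rays replicate 3 (571 for carbon ions minus gamma rays, and 541 without carbon ions replicate 1) also moved a count by over 1.5 times, as did thermal neutrons replicates 1 and 2 (197 and 193) and carbon ions replicates 1 and 2 (202 and 249) for thermal neutrons minus carbon ions. The cause was not tested.

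SPG3 after gamma rays lost its call on high-power scans and with scaling (adjusted p = 0.055 in both), and SPG4 after gamma rays with scaling (0.05). SPG1 after carbon ions (0.01) and SPG4 for thermal neutrons minus gamma rays (0.044) were called with array weights. SNZ3 after fast neutrons was lost on high-power scans (0.072), and SNZ2 after fast neutrons was called on low-power scans (0.031). Replicate numbers were shared between radiations. In 9 pairs of same-numbered arrays the deviations from the radiation means gave r from -0.25 to 0.132, 1 of them over 0.1. With so few arrays per radiation, these r values cannot show whether same-numbered arrays were handled together. With a replicate block, carbon ions minus gamma rays gave 829 genes and 4 members, thermal neutrons minus gamma rays 1780 and 2, and thermal neutrons minus carbon ions 382 and 1.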
